A study of Mus musculus with 33 samples.

Results

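The collagen chain genes encode the α chains that collagens are built from. They were taken here as every mouse gene whose annotated symbol is Col, a collagen type number, the letter a and a chain number, with 1 probe per gene, the one with the highest mean in the authors' normalized table. The probe table used here names 30 such genes among 10445 named genes. Chains such as Col6a3, Col9a3, Col11a1, Col11a2 and Col12a1 are not among them, so several of the classes below are incomplete. All 30 passed the filter on dim probes (detection p under 0.01 on at least 4 of 33 arrays), as did 10412 genes in all. Col8a2 was detected on 4 arrays, all of day 6, and Col9a1 on 5, all of day 12. Col4a3 was detected on 5 arrays, of which 4 were of day 4. These genes passed the filter only through the group where they were highest, so their tests are no independent support for a rise there. By textbook structure they comprise 9 fibrillar chains, 6 basement membrane chains, 5 fibril-associated chains (FACIT), 3 beaded filament chains, 2 multiplexin chains, 2 transmembrane chains, and 1 each of the short-chain, anchoring fibril and unclassed kinds.

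RNA had been hybridised to 33 single-colour Illumina bead arrays. The groups were tissue labelled uterine microenvironment, taken 4 (4 arrays), 6 (6 arrays), 8 (4 arrays), 10 (4 arrays), 11 (4 arrays) or 12 days (5 arrays) after fertilization, and uterus of non-pregnant mice (6 arrays). All groups share the inbred strain C57BL/6 and an age of 8 weeks, and no further treatment or allele is labelled. The labels give neither pooling of animals nor whether arrays hold separate animals, so the p-values measure the spread between these samples, which may be technical. They also do not say which parts of the implantation site were taken. In such bulk RNA, fewer cells of a type and less RNA per cell cannot be told apart.

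Collagen chains wind around each other in triple helices inside the cell, where they are hydroxylated and folded by dedicated enzymes, and are then secreted, trimmed and crosslinked. Fibrillar collagens form the load-bearing fibrils of connective tissue, collagen IV forms the sheet of basement membranes, and fibril-associated collagens decorate fibrils. In the rodent uterus the fibrillar network between stromal cells is remodelled when they turn into decidual cells around the implanting embryo.

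Each value below is a log2 normalized intensity of 1 array, or a difference of 2 group means on that scale with its standard error (SE). A gene "rose" or "fell" where limma's adjusted p, over all 10412 genes of a comparison, was under 0.05. A probe at detection p under 0.01 on an array is called detected there. Where no array of a group detected the probe, the difference is a bound, given as "at least N-fold" above the dimmest detectable signal of those arrays. Levels of different probes cannot be set against each other.

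As a measure of depth, 31 arrays detected between 15040 and 18692 probes each. The other 2 were dim: non-pregnant replicate 4 detected 13097 and day 6 replicate 4 detected 13149. Non-pregnant replicate 6 stood apart in these genes: its mean over the 30 collagen genes lay 0.64 above their mean over all arrays, where the other non-pregnant arrays lay between -0.35 and -0.18 and the day 4 arrays between 0.31 and 0.62. In comparisons that hold one of these arrays, counts of the 30 collagen genes that rose or fell are given with and without all 3. Counts with a 2-fold minimum, counts of genes without overlap and counts within classes or other gene lists are given with them only. Leaving the 3 out together was chosen after the data were seen.

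All 30 collagen chain genes differed among the 7 groups by limma's F test (largest adjusted p = 0.0118), as did 80.2% of all genes tested, and 26 of the 30 had group means spanning at least 2-fold, as did 50% of all genes while passing the test. The highest group mean was at day 4 for 15 genes, day 12 for 6, day 6 for 5, day 8 for 3 and in non-pregnant uterus for 1. The map of all 30 genes on the 33 arrays shows this shift from left to right.

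**Figure D1:**
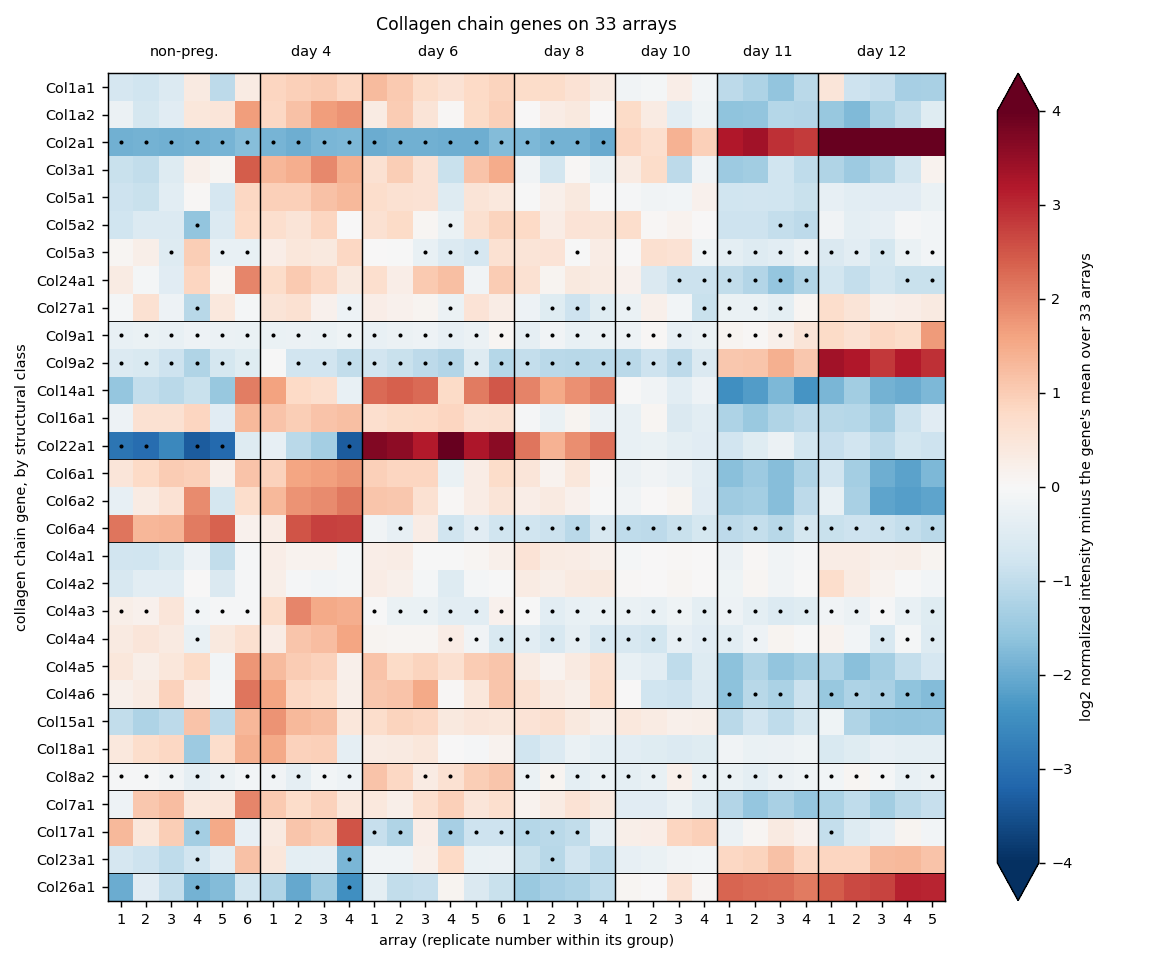
Log2 normalized intensity of the 30 collagen chain genes (rows, by structural class) on the 33 arrays (columns, by group and replicate number), minus each gene's mean over all arrays. Red is above and blue below that mean, and a black dot marks an array on which the probe was not detected. Col2a1, Col9a2 and Col26a1 are red at days 11 and 12, Col22a1 at day 6, and most fibrillar and beaded filament chains at day 4.

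At day 4 against non-pregnant uterus, 10 collagen chain genes rose and 0 fell by limma's test (15 and 0 at unadjusted p under 0.05), in a comparison where 8.98% of all genes were called, 4.46% as rises and 4.52% as falls. The median difference over the 30 genes was 0.58, against 0.01 over all genes. Of the 9 fibrillar chains measured 5 rose. They were Col1a1 (1.31, SE 0.26, adjusted p = 0.00155) and Col1a2 (1.17, SE 0.32, adjusted p = 0.0197), the chains of collagen I, Col3a1 of collagen III (1.49, SE 0.47, adjusted p = 0.041), and Col5a1 (1.41, SE 0.23, adjusted p = 0.00021) and Col5a2 (1.06, SE 0.27, adjusted p = 0.0127) of collagen V, which sits in the core of collagen I fibrils. Beside them rose Col15a1, a multiplexin of basement membrane zones (1.5, SE 0.38, adjusted p = 0.0114), Col6a2 of the beaded filaments around cells (1.36, SE 0.35, adjusted p = 0.013) and the collagen IV chains Col4a1, Col4a3 and Col4a4. The count of 10 thus holds Col4a3, which passed the filter only through the day 4 arrays.

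The arrays of both groups show how far single libraries carry these values. Col1a1 measured 12.72, 12.8, 12.87 and 12.67 on the day 4 arrays, against a lowest of 10.8, a median of 11.24 and a highest of 12.2 on the non-pregnant arrays. No day 4 array of Col1a1 overlapped the non-pregnant ones. Col5a1 measured 12.72, 12.72, 12.96 and 13.08 on the day 4 arrays, against a lowest of 10.9, a median of 11.23 and a highest of 12.6 on the non-pregnant arrays, again without overlap. Col3a1 measured 10.58, 10.7, 11.16 and 10.67 on the day 4 arrays, against a lowest of 8.24, a median of 9.02 and a highest of 11.65 on the non-pregnant arrays. For Col3a1 the highest of all 10 arrays was non-pregnant replicate 6, and the other 5 non-pregnant arrays lay below every day 4 array. Col1a2 measured 10.18, 10.52, 11.01 and 11.14 on the day 4 arrays, against a lowest of 8.66, a median of 9.45 and a highest of 11.01 on the non-pregnant arrays, overlapping only through non-pregnant replicate 6. Col15a1 measured 11.73, 11.22, 11.14 and 10.39 on the day 4 arrays, against a lowest of 8.7, a median of 8.93 and a highest of 11.26 on the non-pregnant arrays, where replicates 4 and 6 were high.

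Without non-pregnant replicate 6, 14 collagen genes rose at day 4 and 0 fell, among them Col14a1 (1.89, SE 0.29), Col22a1 (1.47, SE 0.34), Col16a1 (0.84, SE 0.2) and Col6a1 (0.79, SE 0.24), and without the 3 arrays that stand apart 18 rose. Of all genes 11.2% and 22.2% were called in these 2 settings. The count was 6 without day 4 replicate 3, where 4.75% of all genes were called. It was 4 when day 4 replicates 2 and 3 and non-pregnant replicates 2 and 3, treated as near-identical after earlier work on these data, were averaged (4.05% of all genes). It was 0 when only these 2 groups entered the fit, where 0.096% of all genes were called. In that fit 11 rose and 0 fell at unadjusted p under 0.05 by limma. Col3a1 missed the threshold under 11 of 24 alternatives, with differences between 1.28 and 2.3 throughout and an adjusted p of up to 0.263. Col1a2 missed it under 4 of 24 (adjusted p up to 0.23) and Col15a1 under 2 of 24 (adjusted p up to 0.26). On the linear intensity scale, the smooth muscle markers (7 of 7 measured) summed to between 61309 and 82208 on the day 4 arrays and between 53384 and 98335 on the non-pregnant arrays. The uterine stroma markers (6 of 6) summed to between 2573 and 3753 on the day 4 arrays and between 2299 and 6626 on the non-pregnant arrays. The 2 measured adipose tissue markers of 5 summed to between 54 and 548 on the day 4 arrays and between 269 and 5336 on the non-pregnant arrays. The part of such cells in the day 4 values was not tested.

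**Figure D2:**
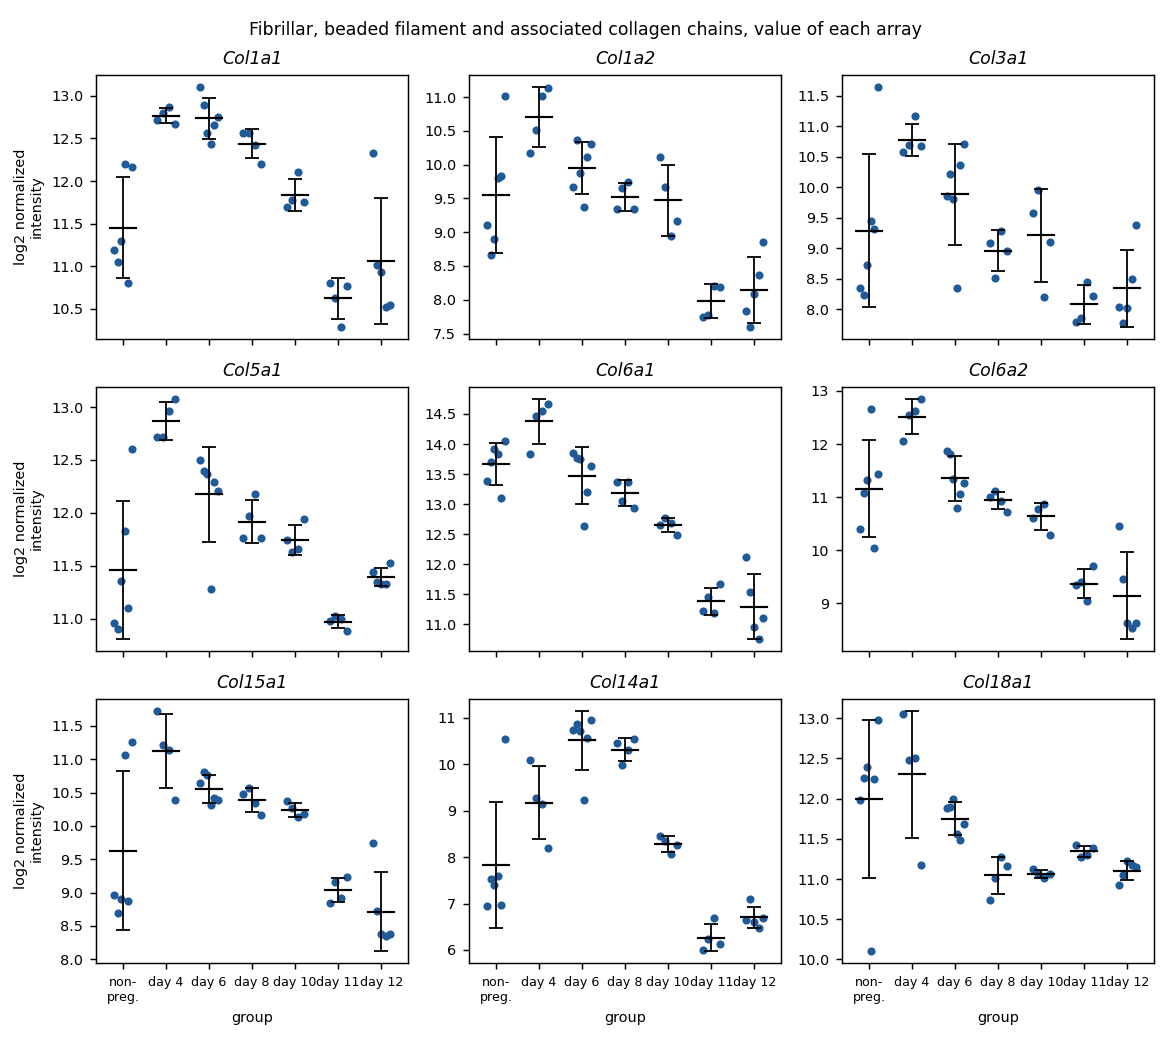
Log2 normalized intensity (y axis) of 9 collagen chain genes on each array, by group from non-pregnant uterus to day 12 (x axis). Filled points are arrays that detected the probe, open points are not detected, and the bar is the group mean ± SD. The group means of Col1a1, Col5a1 and Col6a2 are highest at day 4 and lowest at day 11 or 12, and 1 non-pregnant array of Col3a1 and of Col14a1 lies far above the other 5.

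The promoters of Col1a2 and Col3a1, both of which rose at day 4, are shown as an example of how unlike the sequences before the start sites of fibrillar chains can be. Each window runs from 250 bases before to 50 bases after the RefSeq start site (GRCm38.p6), written 5′ to 3′ on the gene's strand. Capitals mark matches on either strand of 3 short motifs. They are the CCAAT box, the GC box spelt GGGCGG, and the TATA box spelt TATAAA, each also searched as its reverse complement.
Col1a2 promoter, chr6:4505368-4505667, plus strand: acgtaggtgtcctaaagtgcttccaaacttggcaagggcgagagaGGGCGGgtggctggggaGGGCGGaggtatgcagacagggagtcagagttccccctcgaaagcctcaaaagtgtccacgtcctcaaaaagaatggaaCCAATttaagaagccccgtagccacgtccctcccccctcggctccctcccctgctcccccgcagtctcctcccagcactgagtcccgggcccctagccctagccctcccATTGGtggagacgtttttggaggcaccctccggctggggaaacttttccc
Col3a1 promoter, chr1:45311288-45311587, plus strand: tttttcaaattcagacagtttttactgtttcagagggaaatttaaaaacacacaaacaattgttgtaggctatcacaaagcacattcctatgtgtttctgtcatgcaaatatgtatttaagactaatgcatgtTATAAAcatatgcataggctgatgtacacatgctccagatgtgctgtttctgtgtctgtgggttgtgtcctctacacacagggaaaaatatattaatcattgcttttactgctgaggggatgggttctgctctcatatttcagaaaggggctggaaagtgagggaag
The Col1a2 window has a GC content of 61%, 2 CCAAT and 2 GGGCGG matches and no TATAAA, while the Col3a1 window has a GC content of 37.7% and 1 TATAAA match. A promoter was in the RefSeq table used for 23 of the 30 genes, in 26 windows. GGGCGG was in 17 of these 26 windows (65.4%) and in 35.7% of all 32851 windows of that length, CCAAT in 11 (42.3%) and in 37.4%, and TATAAA in 2 (7.69%) and in 13.6%. A match is a description of letters, not a bound site.

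At day 6 against non-pregnant uterus, 9 collagen genes rose and 2 fell, 36.7% of the 30, where 38.8% of all genes were called, 20% as rises and 18.9% as falls. The median over the 30 was 0.28, against 0 over all genes. The 2 largest rises were fibril-associated chains, Col22a1 (6.22, SE 0.37, adjusted p = 2.08e-14) and Col14a1 (2.69, SE 0.39, adjusted p = 2.3e-06). Col8a2 and Col4a1 rose too, and Col26a1 did by 0.69 (SE 0.24, adjusted p = 0.0205), a call lost under 12 of 26 alternatives (adjusted p up to 0.515). Col1a1 (1.29, SE 0.23), Col5a2 (1, SE 0.24), Col15a1 (0.93, SE 0.34) and Col5a1 (0.72, SE 0.2) were also higher than in non-pregnant uterus at adjusted p between 5.16e-05 and 0.0273. The call of Col15a1 was lost under 7 of 26 alternatives (adjusted p up to 0.142). Col6a4, a beaded filament chain, fell by 1.94 (SE 0.32, adjusted p = 1.12e-05), and Col17a1, the transmembrane collagen of epithelial hemidesmosomes, fell by 1.23 (SE 0.36, adjusted p = 0.00767). Without the 3 arrays that stand apart, 17 rose and 3 fell, where 45.9% of all genes were called.

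Col22a1, a chain known from tissue junctions such as those of muscle and tendon, measured between 10.87 and 12.28 on the 6 day 6 arrays with a median of 11.27, against 4.37 to 7.17 and a median of 4.7 on the non-pregnant arrays. It was detected on 6 of 6 day 6 arrays and on 2 of 6 non-pregnant arrays, replicates 3 (5.11) and 6 (7.17), and the groups did not overlap. At day 4 it stood at 7.37, 6.61, 6.33 and, undetected, 4.35, so the day 6 arrays lay 5.17 above day 4 (SE 0.42, adjusted p = 4.02e-11). It then measured 9.82, 9.09, 9.56 and 9.88 on the day 8 arrays, and fell by 1.74 against day 6 (SE 0.42, adjusted p = 0.0027). On the day 10 arrays it measured 7.38, 7.42, 7.28 and 7.24, which fell by 2.26 against day 8 (SE 0.46, adjusted p = 0.000439). At days 11 and 12 it stayed above the non-pregnant mean by 2.03 (SE 0.42) and 1.72 (SE 0.39), each group overlapping non-pregnant replicate 6. The size of these differences depended on the setting, with most non-pregnant arrays undetected. Under the alternatives it ran from 4.09 to 6.64 at day 6, 0.73 to 2.44 at day 11 and 0.57 to 2.13 at day 12. All of these kept their call.

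Col14a1, which binds to collagen I fibrils, followed a similar course with a broader top. It measured between 9.23 and 10.95 on the day 6 arrays (median 10.74), and 10.46, 9.98, 10.3 and 10.54 on the day 8 arrays, against 6.94 to 10.54 on the non-pregnant arrays (median 7.47). The 5 non-pregnant arrays other than replicate 6 lay at or below 7.59, under every day 6 and day 8 array. It then fell by 2.04 at day 10 against day 8 (SE 0.48, adjusted p = 0.00252), with 8.46, 8.34, 8.06 and 8.27 on the day 10 arrays, and by 2.02 at day 11 against day 10 (SE 0.48, adjusted p = 0.00378), with 6.01, 6.24, 6.68 and 6.12 on the day 11 arrays. None of these neighbouring groups overlapped. Without non-pregnant replicate 6, Col14a1 was also called higher than non-pregnant uterus at day 10 (1, SE 0.29, adjusted p = 0.00425), and its fall at day 12 was not called (-0.59, SE 0.27, adjusted p = 0.0619). The rise at day 6 against day 4 (1.34, SE 0.44, adjusted p = 0.023) missed the threshold under 4 of 24 alternatives (adjusted p up to 0.15).

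Against day 4 itself, 4 collagen genes rose at day 6 and 8 fell, where 25.7% of all genes were called (13.1% rises, 12.6% falls). The median was -0.15 over the 30 and 0.01 over all genes. Both collagen counts were the same without the 3 arrays that stand apart, where 30.8% of all genes were called. All 3 beaded filament chains that were measured fell. The differences were -2.42 for Col6a4 (SE 0.35, adjusted p = 3.39e-06), -1.16 for Col6a2 (SE 0.35, adjusted p = 0.0133) and -0.91 for Col6a1 (SE 0.23, adjusted p = 0.00397). Col6a4 measured 5.7, 7.94, 8.15 and 8.13 on the day 4 arrays, was detected on 2 of 6 day 6 arrays (5.28 and 5.73) and on none of the 17 arrays of days 8 to 12. Its loss against non-pregnant uterus was at least 3.18-fold at day 8, 3.27-fold at day 10, 3.37-fold at day 11 and 3.58-fold at day 12. Col17a1 fell by 2.06 (SE 0.41, adjusted p = 0.000255), with between 4.43 and 6.02 on the day 6 arrays, detected on 1 of 6, against 6.13, 6.86, 6.74 and 8.28 on the day 4 arrays. Col8a2, a short-chain network collagen, rose to between 5.1 and 5.91 on the day 6 arrays (median 5.67), 4 of 6 detected. It was detected on no other array of the study, so it passed the filter through day 6 alone. Its day 6 mean lay at least 1.27-fold above non-pregnant uterus and 1.36-fold above day 4.

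Markers of other cells moved over the same days. The epithelium markers (4 measured of 5) summed to between 983 and 1896 on the day 6 arrays, against 1980 to 10374 on the day 4 arrays, beside the fall of Col17a1. The decidua markers (5 of 5) summed to between 3708 and 5569 on the day 6 arrays and 146 to 1869 on the day 4 arrays, where Prl8a2, Prl3c1 and Bmp2 were undetected. Their part in the collagen values was not tested.

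**Figure D3:**
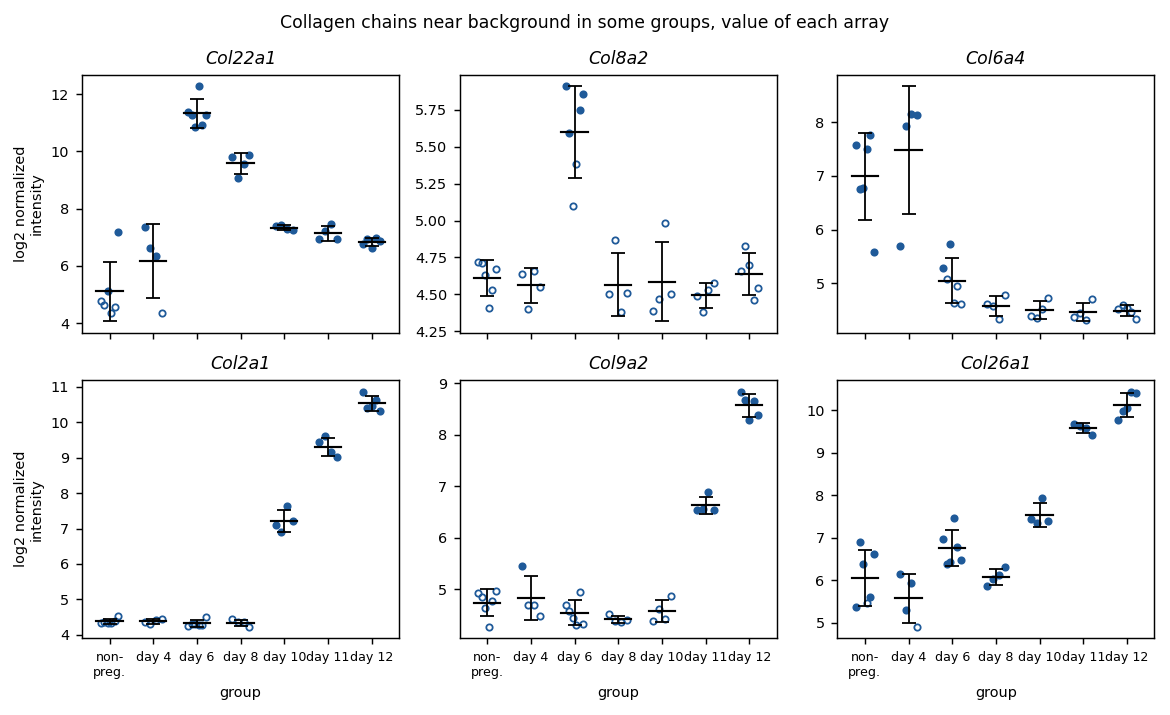
Log2 normalized intensity (y axis) of 6 collagen chain genes on each array, by group from non-pregnant uterus to day 12 (x axis). Filled points are detected, open points not detected, and the bar is the group mean ± SD. Col22a1 and Col8a2 are highest at day 6, Col6a4 is open from day 8 on, and Col2a1, Col9a2 and Col26a1 climb from day 10 or 11.

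At day 8 against non-pregnant uterus, 6 collagen genes rose and 5 fell, where 51% of all genes were called, 24.8% as rises and 26.2% as falls. With median scaling 8 rose and 3 fell, where 35.9% of all genes were called. Col1a1 was still higher by 0.99 (SE 0.26, adjusted p = 0.0022), with 12.57, 12.57, 12.42 and 12.2 on the day 8 arrays, the last of them equal to the highest non-pregnant array. Col5a2 was higher by 1.07 (SE 0.27, adjusted p = 0.00136), whereas Col3a1 (-0.32, SE 0.47) did not pass. Col18a1, the multiplexin whose end fragment is endostatin, fell by 0.95 (SE 0.32, adjusted p = 0.0146). It measured 10.74, 11.01, 11.27 and 11.16 on the day 8 arrays, against 10.1 to 12.98 on the non-pregnant arrays (median 12.25), where the dim replicate 4 lay below every day 8 array and the other 5 lay above every one. Without the 3 arrays that stand apart, 8 rose and 7 fell, where 57.1% of all genes were called.

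Against day 6, 5 collagen genes fell at day 8 and 0 rose (9 and 2 at unadjusted p under 0.05 by limma), where 20.3% of all genes were called (10.1% rises, 10.3% falls). These were Col22a1, Col8a2 (undetected on all 4 day 8 arrays, at least 1.21-fold lower), Col23a1 by 0.98 (SE 0.32), Col16a1 by 0.84 (SE 0.22) and Col27a1 by 0.69 (SE 0.23), the last 3 at adjusted p between 0.00647 and 0.0349. The count was 3 without day 8 replicate 2 or without day 8 replicate 4, and 9 without the 3 arrays that stand apart. Of all genes 15.2%, 15.7% and 27.1% were then called.

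At day 10 against non-pregnant uterus, 6 collagen genes rose and 10 fell, where 54% of all genes were called (26.6% rises, 27.4% falls), and the median was -0.05 against 0 over all genes. The falls held Col7a1, the anchoring fibril chain under epithelia (-1.24, SE 0.24, adjusted p = 5.05e-05), Col4a5 (-1.16, SE 0.24) and Col4a6 (-1.15, SE 0.31), Col6a1 (-1.02, SE 0.23), Col24a1 (-0.98, SE 0.3) and Col16a1 (-0.76, SE 0.22). The balance of rises and falls depended on the arrays and the fit: 10 rose and 8 fell without the 3 arrays that stand apart, 9 rose and 10 fell without non-pregnant replicate 6, and 11 rose and 11 fell with array weights. Of all genes 59.8%, 53.6% and 64.7% were then called. Against day 8, 3 rose and 5 fell, where 18% of all genes were called (9.99% rises, 8.06% falls). With median scaling 3 rose and 2 fell against day 8, where 9.11% of all genes were called. The count was 5 without day 10 replicate 3, without day 10 replicate 4 or without day 8 replicate 4 (14.5%, 14.3% and 14.2% of all genes). Col17a1 returned to 5.99, 6.01, 6.6 and 6.72 on the day 10 arrays, against 4.62, 4.67, 4.78 and 5.41 on the day 8 arrays, of which 1 was detected (1.46, SE 0.45, adjusted p = 0.0192). This call was lost under 5 of 22 alternatives, with differences down to 0.45 and adjusted p up to 0.0903. The epithelium markers summed to between 5150 and 6471 on the day 10 arrays and between 595 and 833 on the day 8 arrays, and their part in the Col17a1 value was not tested.

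Col2a1, the fibrillar collagen of cartilage, was detected on none of the 20 arrays up to day 8 and on all 13 from day 10. It measured 7.09, 6.9, 7.63 and 7.2 on the day 10 arrays, 9.44, 9.6, 9.17 and 9.03 on the day 11 arrays, and 10.86, 10.41, 10.47, 10.63 and 10.31 on the day 12 arrays. Each of these groups lay wholly above the one before. Against non-pregnant uterus the difference was at least 3.88-fold at day 10 (adjusted p = 1.55e-18), 16.7-fold at day 11 (adjusted p = 4.67e-25) and 39-fold at day 12 (adjusted p = 1.49e-28). Against day 11 the day 12 arrays were higher by 1.22 (SE 0.13, adjusted p = 2.82e-08).

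Probes of collagen IX, a partner of collagen II on cartilage fibrils, were detected throughout a group only from a later day than Col2a1. Levels of different probes cannot be set against each other, so this gives no order of onset. Col9a2, a chain of collagen IX, measured 6.54, 6.56, 6.88 and 6.53 on the day 11 arrays and 8.83, 8.67, 8.29, 8.65 and 8.38 on the day 12 arrays. Of the 24 arrays up to day 10 it was detected on 1, a day 4 array at 5.45. It was at least 2.6-fold above non-pregnant uterus at day 11 (adjusted p = 2.56e-11) and 9.94-fold at day 12 (adjusted p = 8.52e-20), and it rose by 1.94 at day 12 against day 11 (SE 0.17, adjusted p = 5.36e-10). Col9a1, another chain of collagen IX, was detected on all 5 day 12 arrays, at 5.36, 5.2, 5.42, 5.33 and 6.32, and on no other array. Its day 12 mean was at least 1.21-fold above non-pregnant uterus (adjusted p = 9.06e-09). Since Col9a1 passed the filter through the day 12 arrays alone, this test is no independent support for its rise.

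Col26a1, first described in mouse testis and ovary, rose over the same days without being absent before. It measured 7.44, 7.35, 7.94 and 7.39 on the day 10 arrays, 9.68, 9.62, 9.58 and 9.42 on the day 11 arrays, and 9.76, 9.98, 10.05, 10.43 and 10.4 on the day 12 arrays, against 5.37 to 6.91 on the non-pregnant arrays (median 5.99). The differences from non-pregnant uterus were 1.47 (SE 0.26), 3.51 (SE 0.26) and 4.06 (SE 0.25) at days 10, 11 and 12, the last at adjusted p = 4.64e-15. Every array of these 3 groups lay above every non-pregnant array. Col23a1, a transmembrane collagen, was higher by 1.36 at day 11 (SE 0.32, adjusted p = 0.000547) and 1.51 at day 12 (SE 0.3, adjusted p = 6.97e-05), and in both groups it overlapped the non-pregnant arrays through replicate 6 at 7.57.

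Markers of embryonic and placental cells were high on the same days as these chains. The trophoblast markers (4 measured of 7) summed to between 25760 and 33628 on the day 10 arrays and between 37362 and 44634 on the day 12 arrays, against 83 to 110 on the non-pregnant arrays, where all 4 were undetected. The yolk sac markers (6 of 6) summed to between 16667 and 20993 on the day 12 arrays and 140 to 182 on the non-pregnant arrays, and embryonic red cell markers (4 of 4) to between 74577 and 92864 on the day 12 arrays and 87 to 111 on the non-pregnant arrays. Of the 5 cartilage and bone markers only Sox9 was measured. It stood at between 881 and 2984 on the non-pregnant arrays, 199 and 218 on the day 8 arrays, 492 and 695 on the day 10 arrays and 2984 and 3897 on the day 12 arrays. Day of pregnancy and the presence of these cells cannot be told apart in the group comparisons.

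At day 11, 13 collagen genes fell against non-pregnant uterus and 7 rose, where 58.2% of all genes were called (30.7% rises, 27.5% falls), and at day 12, 14 fell and 8 rose, where 60.8% were called (31.8% rises, 29% falls). The day 11 count holds Col9a1, which was undetected on all arrays of both groups. The medians over the 30 genes were -0.5 and -0.51, against 0.04 and 0.03 over all genes. Both sets of differences share the non-pregnant arrays with each other and with the earlier days. Besides Col6a4, the largest falls were those of Col6a1 (-2.28, SE 0.23 at day 11 and -2.37, SE 0.22 at day 12), Col7a1 (-2.22, SE 0.24 and -1.96, SE 0.22), Col4a5, Col4a6 and Col6a2 (-1.78, SE 0.35 and -2.01, SE 0.33). Of the 9 fibrillar chains measured, 4 fell at day 11 (Col1a1, Col1a2, Col3a1 and Col24a1) and 2 at day 12 (Col1a2 and Col24a1). Col2a1 was the only chain of these 9 that rose on either day by limma's test. The Col3a1 call was lost under 8 of 24 alternatives, with differences from -1.42 to -0.58 and adjusted p up to 0.113. Without the 3 arrays that stand apart, 14 fell and 8 rose at day 11, and 14 fell and 10 rose at day 12. Of all genes 63.7% and 64.6% were then called.

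Between days 10 and 11, 11 collagen genes fell and 4 rose, where 14.2% of all genes were called, 8.23% as rises and 5.95% as falls. The median over the 30 was -0.57, against 0.03 over all genes. The 11 were Col14a1, Col1a2 (-1.5, SE 0.35, adjusted p = 0.00312), Col6a1 and Col6a2 (-1.26 each, SE 0.26 and 0.38), Col1a1 (-1.21, SE 0.29, adjusted p = 0.00331), Col15a1 (-1.2, SE 0.41), Col5a2 (-1.13, SE 0.3), Col7a1 (-0.98, SE 0.26), Col16a1 (-0.93, SE 0.24), Col4a5 (-0.88, SE 0.27) and Col5a1 (-0.77, SE 0.25). For each of the 11 the day 11 arrays did not overlap the day 10 arrays, which choosing them by a test on these same arrays favours. Of all 30 collagen genes 19 did not overlap in this comparison, beside 33.1% of genes over the whole array. Leaving out any 1 array of the 2 groups gave between 10 and 13 calls, where between 10.1% and 12.9% of all genes were called. Col15a1 missed the threshold under 10 of 22 alternatives and Col5a1 under 9 of 22, with adjusted p up to 0.112 and 0.115, and Col7a1 under 3 of 22, with adjusted p up to 0.148.

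Values of single arrays show the step. Col1a1 measured 10.8, 10.63, 10.28 and 10.77 on the day 11 arrays, against 11.7, 11.78, 12.11 and 11.75 on the day 10 arrays. Col1a2 measured 7.75, 7.77, 8.2 and 8.19 on the day 11 arrays, against 10.12, 9.67, 8.94 and 9.17 on the day 10 arrays. Col6a1 measured 11.23, 11.45, 11.19 and 11.67 on the day 11 arrays, against 12.66, 12.77, 12.68 and 12.49 on the day 10 arrays. In all 3 genes the highest day 11 array stood below the lowest day 10 array. Col7a1 measured 6.1, 5.72, 5.96 and 5.71 on the day 11 arrays, against 6.82, 6.82, 7.01 and 6.76 on the day 10 arrays. Col5a1 measured 10.98, 11.03, 11 and 10.88 on the day 11 arrays, against 11.74, 11.63, 11.66 and 11.94 on the day 10 arrays.

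Between days 11 and 12, 3 collagen genes rose (Col9a2, Col2a1 and Col9a1) and 0 fell (6 and 0 at unadjusted p under 0.05 by limma), where 6.63% of all genes were called, 3.37% as rises and 3.26% as falls. Day 12 replicate 1 stood high in several of the chains that had fallen. Col1a1 measured 12.33 there and 11.01, 10.93, 10.52 and 10.54 on the other day 12 arrays, and Col15a1 measured 9.75 there and 8.72, 8.38, 8.35 and 8.38 on the others. Without the 3 arrays that stand apart 7 rose, where 12.6% of all genes were called. None of these 3 arrays is a day 11 or day 12 array, and they enter this comparison only through the spread pooled over all groups.

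Markers of uterine muscle, stroma and vessels also differed over these days. The smooth muscle markers (7 of 7 measured) summed to between 30320 and 42583 on the day 11 arrays and between 25950 and 38577 on the day 12 arrays, against 57227 to 58468 on the day 10 arrays and 53384 to 98335 on the non-pregnant arrays. The uterine stroma markers (6 of 6) summed to between 2302 and 3396 on the day 11 arrays, below the 3724 to 4350 of the day 10 arrays but inside the 2299 to 6626 of the non-pregnant arrays. On the day 12 arrays they summed to between 1433 and 2012, below the non-pregnant range. Hoxa10 was undetected on every day 12 array and also on every day 10 array, and Hand2 on every day 11 array. The endothelium markers (5 of 5) summed to between 2324 and 2985 on the day 11 arrays and 2020 and 3390 on the day 12 arrays, against 3152 to 3773 on the day 10 arrays and 586 to 1935 on the non-pregnant arrays. At day 11 they thus lay below day 10 and above non-pregnant uterus. The part of these cells in the collagen values was not tested.

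**Figure D4:**
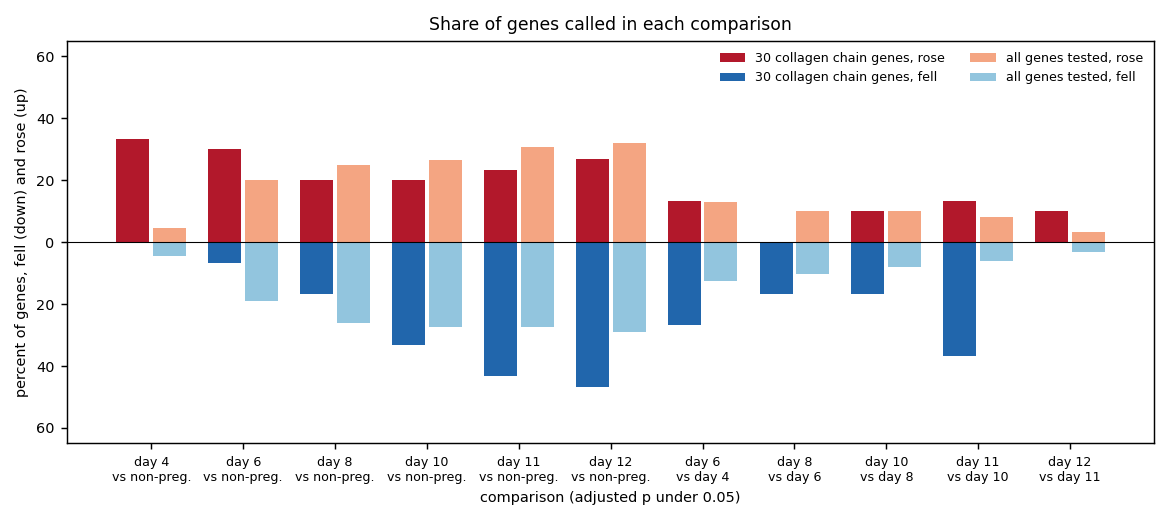
Percent of the 30 collagen chain genes (dark bars) and of all 10412 genes tested (light bars) that rose (upward) or fell (downward) at adjusted p under 0.05 in each of 11 comparisons (x axis). At day 4 against non-pregnant uterus 33.3% of the collagen genes passed, all as rises, and at day 11 against day 10 the falls outnumber the rises by 11 to 4.

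The size of the changes and the separation of the arrays differed between comparisons. With at least a 2-fold difference as well as the test, 8 of the 30 collagen genes passed at day 4, 5 at day 6, 5 at day 8, 8 at day 10, 16 at day 11 and 16 at day 12 against non-pregnant uterus, where 2.65%, 12.8%, 21.9%, 24.2%, 27.3% and 28.1% of all genes did. Between neighbouring days 9 passed for day 6 against day 4, 2 for day 8 against day 6, 6 for day 10 against day 8, 11 for day 11 against day 10 and 2 for day 12 against day 11, where 10.8%, 6.1%, 7.63%, 5.1% and 2.38% of all genes did. The arrays of both groups did not overlap for 3, 4, 5, 9, 15 and 12 of the 30 genes at days 4, 6, 8, 10, 11 and 12 against non-pregnant uterus, and for 4.58%, 12%, 33.7%, 36.4%, 39.9% and 35.6% of all genes. Between neighbouring days they did not overlap for 8, 7, 13, 19 and 10 of the 30 genes in the same order as above, and for 16.3%, 19.4%, 34.8%, 33.1% and 15.8% of all genes. Day 11 against day 10 thus had the highest number of separated collagen genes, 19 of 30. The counts of this paragraph were not repeated without the 3 arrays that stand apart.

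The 6 chains of collagen IV lie in 3 head-to-head gene pairs, and the group means of a pair followed similar courses. Col4a1 and Col4a2 are the chains found in nearly all basement membranes. Col4a1 rose on every day against non-pregnant uterus, by 0.68 (SE 0.14), 0.7 (SE 0.12), 0.9 (SE 0.14), 0.56 (SE 0.14), 0.47 (SE 0.14) and 0.79 (SE 0.13) from day 4 to day 12, at adjusted p of at most 0.00404. It measured 13.77, 13.55, 13.51 and 13.41 on the day 8 arrays, against 12.23 to 13.18 on the non-pregnant arrays (median 12.54), without overlap. Col4a2 rose at day 8 (0.68, SE 0.15, adjusted p = 0.000427), day 10 (0.39, SE 0.15, adjusted p = 0.0298) and day 12 (0.57, SE 0.14, adjusted p = 0.00104). It did not pass at day 4 (0.36, SE 0.15, adjusted p = 0.149), day 6 (0.32, SE 0.14, adjusted p = 0.0667) or day 11 (0.3, SE 0.15, adjusted p = 0.0929), where its arrays overlapped the non-pregnant ones. It measured 12.57, 12.49, 12.6 and 12.62 on the day 8 arrays, against 11.6 to 12.25 on the non-pregnant arrays (median 11.82), again without overlap. The day 10 call of Col4a2 was lost under 7 of 24 alternatives, with adjusted p up to 0.0735.

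Col4a3 and Col4a4, which with Col4a5 form the collagen IV of kidney glomeruli, were highest at day 4. Col4a3 measured 5.56, 6.78, 6.35 and 6.28 on the day 4 arrays, all detected, against 4.73 to 5.32 on the non-pregnant arrays, of which 1 was detected (1.3, SE 0.16, adjusted p = 1.12e-05). Since it passed the filter only through the day 4 arrays, this test is no independent support for its rise. Col4a3 was undetected on all 23 arrays of days 6 to 12, at least 1.88-fold lower at day 6 than at day 4. Col4a4 rose by 0.73 at day 4 against non-pregnant uterus (SE 0.2, adjusted p = 0.0217) and fell by 1.09 at day 6 against day 4 (SE 0.2, adjusted p = 0.000133).

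Col4a5 and Col4a6, whose products are together in smooth muscle basement membranes, did not pass up to day 8 and then fell together. Col4a5 fell by 1.16 against non-pregnant uterus (SE 0.24) at day 10, and the differences were -2.04 (SE 0.24) at day 11 and -1.77 (SE 0.23) at day 12. For Col4a6 the differences were -1.15 (SE 0.31), -1.84 (SE 0.31) and -2.09 (SE 0.29) at days 10, 11 and 12, and the loss at day 12, where it was undetected on all 5 arrays, was at least 3.08-fold. All 6 of these tests passed, with adjusted p of at most 0.00248.

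**Figure D5:**
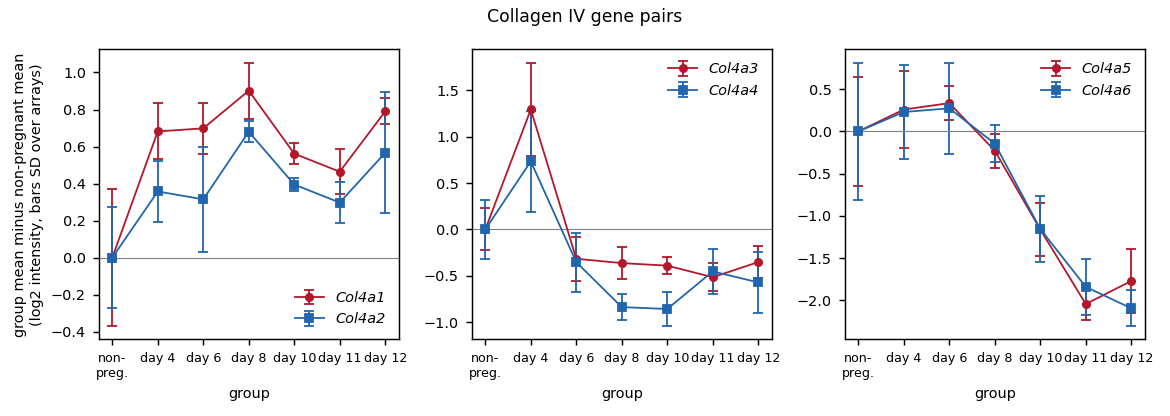
Group mean minus non-pregnant mean of log2 normalized intensity (y axis; bars are the SD over the arrays of a group) for the 3 pairs of collagen IV genes, by group from non-pregnant uterus to day 12 (x axis). The means of Col4a1 and Col4a2 lie above 0, though Col4a2 did not pass at days 4, 6 and 11, Col4a3 and Col4a4 rise at day 4 alone, and Col4a5 and Col4a6 drop from day 10.

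The promoters of the Col4a1 and Col4a2 pair and of the Col4a5 and Col4a6 pair are shown because the genes of each pair lie next to each other on opposite strands and changed in the same direction. Windows, strands and capitals are as for Col1a2.
Col4a1 promoter, chr8:11312777-11313076, minus strand: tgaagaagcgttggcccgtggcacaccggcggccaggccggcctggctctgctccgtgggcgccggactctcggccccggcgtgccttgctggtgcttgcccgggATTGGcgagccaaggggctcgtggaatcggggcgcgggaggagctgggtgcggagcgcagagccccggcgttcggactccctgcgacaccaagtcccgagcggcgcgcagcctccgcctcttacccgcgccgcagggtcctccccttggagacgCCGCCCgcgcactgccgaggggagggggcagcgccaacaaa
Col4a2 promoter, chr8:11312555-11312854, plus strand: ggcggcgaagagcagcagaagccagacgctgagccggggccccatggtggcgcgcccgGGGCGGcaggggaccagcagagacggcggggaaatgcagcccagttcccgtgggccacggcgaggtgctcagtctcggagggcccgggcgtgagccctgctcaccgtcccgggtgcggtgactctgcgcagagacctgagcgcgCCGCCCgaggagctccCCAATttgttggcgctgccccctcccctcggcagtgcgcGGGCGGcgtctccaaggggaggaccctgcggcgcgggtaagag
Col4a5 promoter, chrX:141475169-141475468, plus strand: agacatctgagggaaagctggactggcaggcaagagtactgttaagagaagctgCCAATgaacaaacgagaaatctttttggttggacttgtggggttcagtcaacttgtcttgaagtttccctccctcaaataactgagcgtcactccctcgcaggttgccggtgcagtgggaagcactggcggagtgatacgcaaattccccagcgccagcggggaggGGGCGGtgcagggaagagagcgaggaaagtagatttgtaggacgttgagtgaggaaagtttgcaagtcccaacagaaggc
Col4a6 promoter, chrX:141474027-141474326, minus strand: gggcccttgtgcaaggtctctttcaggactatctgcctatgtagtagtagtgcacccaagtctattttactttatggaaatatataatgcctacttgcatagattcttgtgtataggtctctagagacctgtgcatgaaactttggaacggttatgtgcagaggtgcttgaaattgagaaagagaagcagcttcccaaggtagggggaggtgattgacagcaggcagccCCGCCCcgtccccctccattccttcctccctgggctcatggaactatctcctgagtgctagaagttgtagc
The RefSeq starts of Col4a1 and Col4a2 lie 21 bases apart on chromosome 8, and their windows share 78 bases. The Col4a1 window holds 1 CCAAT and 1 GGGCGG match at a GC content of 74%, and the Col4a2 window 1 CCAAT and 3 GGGCGG matches at 73.7%. The starts of Col4a5 and Col4a6 lie 1343 bases apart on the X chromosome, and their windows share no base. Their GC contents are 52.7% and 48.3%, each window holds 1 GGGCGG match, and CCAAT is in that of Col4a5 alone.

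Col18a1 stayed lower than in non-pregnant uterus at day 10 (-0.93, SE 0.32, adjusted p = 0.0157) and day 12 (-0.89, SE 0.3, adjusted p = 0.0119). Col16a1, a fibril-associated chain, fell at days 8, 10, 11 and 12 against non-pregnant uterus by between 0.56 and 1.69. Col24a1, a minor fibrillar chain, was undetected on all 4 day 11 arrays, at least 2.33-fold lower than in non-pregnant uterus. Col5a3 passed in 1 comparison, a fall of 0.63 at day 6 against day 4 (SE 0.23, adjusted p = 0.0439), and Col27a1 in 1, the fall at day 8 against day 6. For 11 of the 30 genes the array carries 16 further probes. In 54 of the 176 probe and comparison cases both probes of a gene passed, and in 0 of those 54 did they differ in sign. That count leaves out cases in which the reported probe passed and a further probe did not. At day 4 against non-pregnant uterus a further Col6a2 probe gave 0.4 (adjusted p = 0.206 by limma), and those of Col5a2 gave 0.78 and 0.49. At day 11 a further Col23a1 probe gave 0.38 (adjusted p = 0.205 by limma). At day 8 one further Col18a1 probe gave 0.02, and another gave -0.98 and passed. Probes of homologous chains can share signal, so a small difference of a single chain is uncertain in its identity.

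Genes that modify and fold collagen chains changed in both directions after day 4. Of 20 such genes tested, 7 rose, 0 fell and 13 did not pass at day 4 against non-pregnant uterus by limma's test (11 rose and 1 fell at unadjusted p under 0.05). These 35% stand beside 8.98% of all genes called, and the median was 0.46, against 0.01 over all genes. The 7 include Fkbp14, a prolyl isomerase of the endoplasmic reticulum (2.08, SE 0.33), Crtap, a partner of prolyl 3-hydroxylation (1.25, SE 0.24), Serpinh1, the collagen chaperone HSP47 (0.96, SE 0.17), and P3h1, prolyl 3-hydroxylase 1 (0.84, SE 0.16). At day 6, 10 rose and 2 fell, or 60%, beside 38.8% of all genes, with P3h1 higher by 2.03 (SE 0.14), P4ha2, a prolyl 4-hydroxylase subunit, by 1.78 (SE 0.15) and Plod2, a lysyl hydroxylase, by 1.25 (SE 0.27). At day 12, 8 rose and 3 fell, or 55%, beside 60.8% of all genes. P4ha2 (0.97, SE 0.16) and Plod2 (1.11, SE 0.28) were among the 8.

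At day 12 against non-pregnant uterus, where 60.8% of all genes were called and 29% fell, most of the genes of procollagen processing, crosslinking and fibril binding fell. Pcolce, an enhancer of C-propeptide removal, was higher by 1.2 at day 4 (SE 0.3, adjusted p = 0.0108) and 2.04 at day 6 (SE 0.27, adjusted p = 4.06e-07), and fell by 1.41 at day 11 against day 10 (SE 0.33, adjusted p = 0.0031). Of 6 genes of processing and crosslinking, 5 fell at day 12 and 0 rose by limma (5 and 0 at unadjusted p under 0.05), with a median of -0.62 over the 6, against 0.03 over all genes, among them Loxl1 (-1.12, SE 0.17), a lysyl oxidase, and Pcolce2 (-1.14, SE 0.28). Of 8 fibril-binding proteins 6 fell at day 12 and 0 rose by limma (6 and 1 at unadjusted p under 0.05), with a median of -1.17. Tnxb, tenascin X, fell by 3.6 (SE 0.24), Dpt, dermatopontin, by 3.4 (SE 0.25) and Lum, lumican, by 1.6 (SE 0.54). Of 5 genes of collagen breakdown 4 fell at day 12, including the gelatinases Mmp9 (-2.3, SE 0.29) and Mmp2 (-2, SE 0.37) and the collagenase Mmp14 (-1.6, SE 0.24), while Ctsk, cathepsin K, rose by 1.02 (SE 0.23). Adjusted p of these named genes ran from 6.5e-14 to 0.0111.

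Laminins and other partners of collagen IV in basement membranes did not move one way. Of 13 tested, 6 rose and 2 fell at day 6 and 5 rose and 4 fell at day 12 against non-pregnant uterus. These are 61.5% and 69.2%, beside 38.8% and 60.8% of all genes called. Lama1, the laminin chain of embryonic basement membranes, was higher by 3.23 at day 6 (SE 0.24, adjusted p = 3.22e-12) and 4.84 at day 12 (SE 0.25, adjusted p = 8.17e-17), and Nid2, nidogen 2, by 1.6 (SE 0.21) and 1.73 (SE 0.22). Lamb3, a laminin chain of epithelia, differed by -2.26 (SE 0.52) at day 6 and -2.81 (SE 0.55) at day 12. Of 8 collagen receptor genes, 2 rose and 2 fell at day 6 and 1 rose and 3 fell at day 12, or 50% on each day, beside 38.8% of all genes at day 6 and 60.8% at day 12. Itga1, an integrin chain that binds collagen IV and I, was higher by 2.04 at day 8 (SE 0.2, adjusted p = 4.17e-10), and Itga11, an integrin chain of fibroblasts, was lower on the same day (-2.08, SE 0.44, adjusted p = 0.000226).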

How the data were processed

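Total RNA was measured on 33 Illumina bead arrays. Per the labels' protocols, Trizol extraction was followed by an RNeasy clean-up and DNase, a Bioanalyzer check and MessageAmp amplification to biotin-labelled cRNA. The scanner software, the authors' normalization program and the slides are not given in the sources used here. The authors deposited a table of probe intensity with a detection p-value per probe and array, and a table of normalized log2 values. The log2 table deposited by the authors served to pick 1 probe per gene and as an alternative. Intensities and deposited values of 16 of 33 samples carry different replicate numbers in the 2 tables, and those of the intensity table are used.

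Intensities of 45281 probes were background corrected by normexp with the detection p-values (limma 3.58.1, R 4.3.3, offset 16), quantile normalized and put on a log2 scale. The authors' normalized values cover 16712 probes, of which 15254 had 1 gene symbol. Genes detected on at least 4 arrays were fitted with 1 mean per group over 33 arrays (lmFit and eBayes), giving 11 comparisons and an F test, with Benjamini-Hochberg adjustment over 10412 genes. The number of arrays limits the precision. Replicate numbers were not used as pairs: over 88 pairs of same-numbered arrays the correlation of deviations ran from -0.35 to 0.43. On simulated data for day 12 against non-pregnant uterus, 85 of 100 2-fold and 98 of 100 4-fold changes were recovered. For day 11 against day 10 these were 69 and 98 of 100.

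Array values are given for 9 well-known chains and, in each comparison, for the 2 largest rises and 2 largest falls among collagen genes that passed with at least a 2-fold difference. Of each pathway list, up to 4 genes with the largest differences that passed are named. Array values of Col4a3 and Col9a1 were added after their values were seen, as were the later or repeated values of some named pathway genes. The collagen genes, the pathway and marker lists and the tests were chosen with earlier results of these data known. Alternatives covered scaling, background correction, probe choice, filter, array weights, the groups in the fit, the replicate block, and leaving out arrays. Promoters and their motif counts came from RefSeq (GRCm38.p6). Proteins were not analysed here.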

Additional observations from a re-analysis of the deposited data

Results flagged for a closer look

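In 16 of 126 sets of arrays (18 named genes, each group of 4 to 6 arrays), 1 array lay farther from the others than Dixon's critical value allows; chance gives about 1 in 20. Non-pregnant replicate 6 did so in 4 genes. There Col3a1 measured 11.65 where the other 5 arrays lay between 8.24 and 9.44, and Col14a1 measured 10.54 where the others lay between 6.94 and 7.59. Col22a1 measured 7.17 there, with the others between 4.37 and 5.11, and Col2a1, undetected on every non-pregnant array, 4.54 with the others between 4.33 and 4.38. Col18a1 measured 10.1 on non-pregnant replicate 4, below the others at 11.98 to 12.98.

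Day 6 replicate 4 stood out in 3 genes, with Col14a1 at 9.23 (others 10.57 to 10.95), Col5a1 at 11.28 (others 12.21 to 12.5) and Col22a1 at 12.28 (others 10.87 to 11.38). Day 12 replicate 1 was high in Col1a1 at 12.33 (others 10.52 to 11.01) and in Col15a1 at 9.75 (others 8.35 to 8.72). Day 4 replicate 1 was low in Col6a4 at 5.7 (others 7.94 to 8.15) and high in Col4a2 at 12.49 (others 12.14 to 12.19). The remaining single arrays were day 6 replicate 3 with Col17a1 at 6.02 (others 4.43 to 4.93), day 6 replicate 6 with undetected Col2a1 at 4.51 (others 4.25 to 4.32), day 10 replicate 3 with Col26a1 at 7.94 (others 7.35 to 7.44) and day 11 replicate 3 with Col9a2 at 6.88 (others 6.53 to 6.56).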

How the results depend on the processing

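Alternatives left all directions in place among the differences of single named genes that had passed as reported, the only ones checked. Counted once per alternative, 1138 of these kept their call and 63 lost it under changed settings. When 1 array was left out, 796 kept it and 63 lost it. Counts of collagen genes that passed moved by over 1.5 times as follows, and the cause was not tested. With array weights the counts were 20 at day 4, 20 at day 6 and 20 at day 8 against non-pregnant uterus (10, 11 and 11 as reported), 16 for day 8 against day 6 (5), 14 for day 10 against day 8 (8) and 8 for day 12 against day 11 (3). Of all genes 37.4%, 48.5%, 62.8%, 37.7%, 38.7% and 18.7% were then called, in the same order. As reported these shares were 8.98%, 38.8%, 51%, 20.3%, 18% and 6.63%. With only the 2 groups compared in the fit the collagen counts were 0 at day 4 and 7 at day 6 against non-pregnant uterus, 8 for day 8 against day 6, 14 for day 10 against day 8 and 7 for day 12 against day 11. Of all genes 0.096%, 23.8%, 19.3%, 35.1% and 14.1% were then called, in the same order. The 0 at day 4 came from limma, with 11 at unadjusted p under 0.05. Averaging near-identical arrays gave 4 at day 4, where 4.05% of all genes were called. Leaving out the 3 arrays that stand apart gave 18 at day 4, 20 at day 6, 9 for day 8 against day 6 and 7 for day 12 against day 11, and leaving out both dim arrays gave 5 for day 12 against day 11. Of all genes 22.2%, 45.9%, 27.1%, 12.6% and 11.2% were called in these 5 cases. A 2-fold minimum gave 5 at day 6, 5 at day 8 and 8 at day 10 against non-pregnant uterus and 2 for day 8 against day 6, by its stricter construction. It left 12.8%, 21.9%, 24.2% and 6.1% of all genes. Median scaling gave 5 for day 10 against day 8 and 2 for day 8 against day 6 (9.11% and 8.56% of all genes). No background correction gave 5 and 3 (18.1% and 20.6%), and the authors' normalized values 5 for day 10 against day 8 (18.3%). With median scaling the median difference of all genes was 0.148 at day 4 against non-pregnant uterus and -0.119 at day 6 against day 4, where it was 0.009 and 0.012 as reported.

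Leaving out 1 array at a time gave between 6 and 14 genes at day 4, 9 and 16 at day 6, 10 and 14 at day 8, 13 and 19 at day 10, 19 and 24 at day 11 and 20 and 23 at day 12 against non-pregnant uterus. Shares of all genes called ran from 4.66% to 15%, 34.2% to 42%, 46.2% to 52.9%, 49% to 56%, 54.1% to 60% and 57.7% to 61.7%. Between neighbouring days leaving out 1 array gave between 9 and 14 for day 6 against day 4, 3 and 6 for day 8 against day 6, 5 and 8 for day 10 against day 8, 10 and 13 for day 11 against day 10, and 3 for day 12 against day 11. There the shares of all genes called ran from 20.1% to 27.6%, 15.2% to 20.2%, 14.2% to 15.8%, 10.1% to 12.9% and 4.75% to 6.22%. The F test gave 30 throughout, with between 78.2% and 83.7% of all genes passing. Whether the replicate numbers pair the arrays was not settled. Of 88 correlations 19 were over 0.1 (median 0.01), and 12 of 33 arrays correlated best with an array of their own number. How many would do so by chance was not worked out. With the replicate block the counts were 11, 11, 11, 16, 19 and 22 at days 4, 6, 8, 10, 11 and 12 against non-pregnant uterus, none of them over 1.5 times from those reported. Of all genes 10.3%, 40.3%, 51.2%, 54%, 58.1% and 61.5% were then called. Signals near the array's background limit what can be seen of Col2a1, Col4a3, Col4a6, Col6a4, Col8a2, Col9a1, Col9a2 and Col24a1, whose folds are bounds where no array of a group detected them. Other chains, such as Col5a3, Col17a1, Col22a1 and Col27a1, were also undetected on some arrays of the groups compared.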
